A study of Mus musculus with 9 samples.

Results

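Expression of 10 epithelial adhesion and keratin genes was compared between the embryonic and the adult pituitary gland of the mouse. The genes were taken by name: the cadherins *Cdh1* and *Cdh2*, the adhesion molecule *Epcam*, the claudins *Cldn3*, *Cldn4*, *Cldn6* and *Cldn7*, the keratins *Krt8* and *Krt18*, and the mesenchymal filament gene *Vim* as their counterpart. They are 10 of the 55450 genes counted, and all 10 were among the 19371 tested genes, whose counts averaged 5 or more over the libraries. RNA was sequenced from 9 animals bred on a mixed 129Sv/c57BL6J background. The 7 embryo libraries came from Rathke's pouch at e13.5, and every embryo carried the Sox2 Egfp/+ allele. The 2 adult libraries came from pituitary glands of mice at postnatal week 8, after removal of the posterior lobe. No Sox2 allele is given for these mice, so an effect of the allele in the embryos cannot be told apart from stage. Both sexes were used at each stage, but the sex of a given library is not stated.

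Epithelial cells hold together through adherens junctions, built on cadherins, and through tight junctions, in which claudins seal the space between neighbouring cells and set which ions pass. Keratins form the intermediate filaments of epithelia as pairs of a type II and a type I protein, and vimentin forms those of mesenchymal, endothelial and many progenitor cells. Rathke's pouch is an epithelial fold of the oral ectoderm, whose cells leave the cleft as they differentiate into hormone-producing cells.

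Counted read pairs numbered 16738863 to 28537311 per embryo library and 36421545 and 31191117 in the adult libraries. Values are given as CPM, counts normalised to the TMM-scaled library size, and fold changes as embryo over adult on the log2 scale with their standard error. Genes took 59.7% and 62.8% of the read pairs of embryos 1 and 4. This share was 73.9% to 80.0% for the remaining embryos, 84.0% for adult 1 and 83.7% for adult 2. The 8 erythroid marker genes, led by *Hbb-y* in the embryos and *Hbb-bs* in the adults, summed to 171190 and 213896 CPM in these embryos. Their sums elsewhere were 6123 to 19078 CPM for embryos and 763 and 1977 CPM for adults. The pouch marker *Hesx1* was present in every embryo, with a median of 22.4 CPM. The 7 hormone genes, led by *Cga* in the embryos and *Gh* in the adults, summed to 870.2 to 1920.4 CPM in the embryos and to 152482 and 160059 CPM in the adults. Of these 7 genes, 6 were called higher in the adult and none in the embryo, against 14.6% and 11.3% of all tested genes.

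*Cldn6*, *Vim*, *Cldn4*, *Cldn7* and the keratins *Krt8* and *Krt18* were more abundant in the pouch than in the adult gland, and *Epcam* was lower in every embryo than in the adults. With a gene called at a Benjamini-Hochberg adjusted p below 0.05 and a fold change above 4 (edgeR quasi-likelihood test), 5 of the 10 were called higher in the embryo: *Cldn6*, *Vim*, *Cldn4*, *Krt18* and *Cldn7*. Across all tested genes 11.3% were called in this direction. None of the 10 was called higher in the adult, against 14.6% of all tested genes. DESeq2 called none either, and at an unadjusted p under 0.05 *Epcam* alone was higher in the adult in the edgeR test. Without the threshold on fold change, *Krt8* joined and 6 of the 10 passed higher in the embryo, against 24.0% of all tested genes, and none in the adult, against 27.4%. *Krt8* did not pass without adult 2 (1.72, adjusted p = 0.0567). Every embryo lay above both adults for these 6, and this was so for 26.2% of all tested genes. Every embryo lay below both adults for *Epcam* alone, and this was so for 32.9% of all tested genes. For *Cdh1*, *Cdh2* and *Cldn3* the stages overlapped. The median log2 fold change was 2.01 over the 10 genes and −0.040 over all tested genes. These are tissue samples, so fewer cells of a type and less RNA per cell cannot be told apart.

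**Figure D1:**
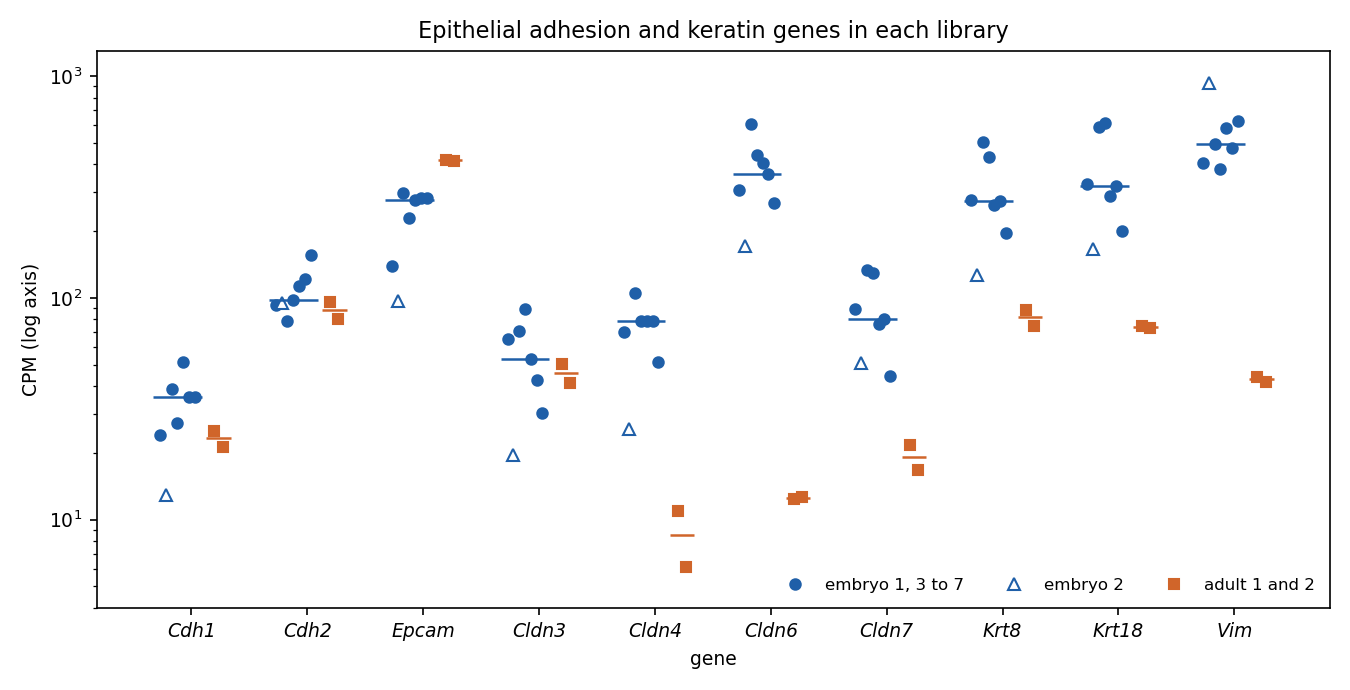
CPM (log axis) of the 10 genes in each library, with embryos in blue, embryo 2 as an open triangle and adults in orange. Lines mark the embryo median and the adult mean, and the stages are farthest apart for Cldn6, at 172 CPM or more in the embryos and at most 12.6 CPM in the adults.

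As an alternative, each library was corrected for the transcript length and GC content of its genes. After this correction 3 of the 10 genes were still called higher in the embryo, against 8.58% of all tested genes, and none in the adult, against 12.2%. These were *Cldn6* (3.98), *Vim* (3.81) and *Cldn4* (2.29). *Krt18* (1.26), *Krt8* (1.17) and *Cldn7* (1.09) kept an adjusted p below 0.05 in the edgeR test but fell short of the fold threshold. *Epcam* moved to −1.49 (adjusted p = 0.0036) and *Cdh2* to 0.88 (adjusted p = 0.0086). *Cldn3* turned to −0.72 (adjusted p = 0.125) and *Cdh1* moved to 0.87 (adjusted p = 0.0844), and neither passed.

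**Figure D2:**
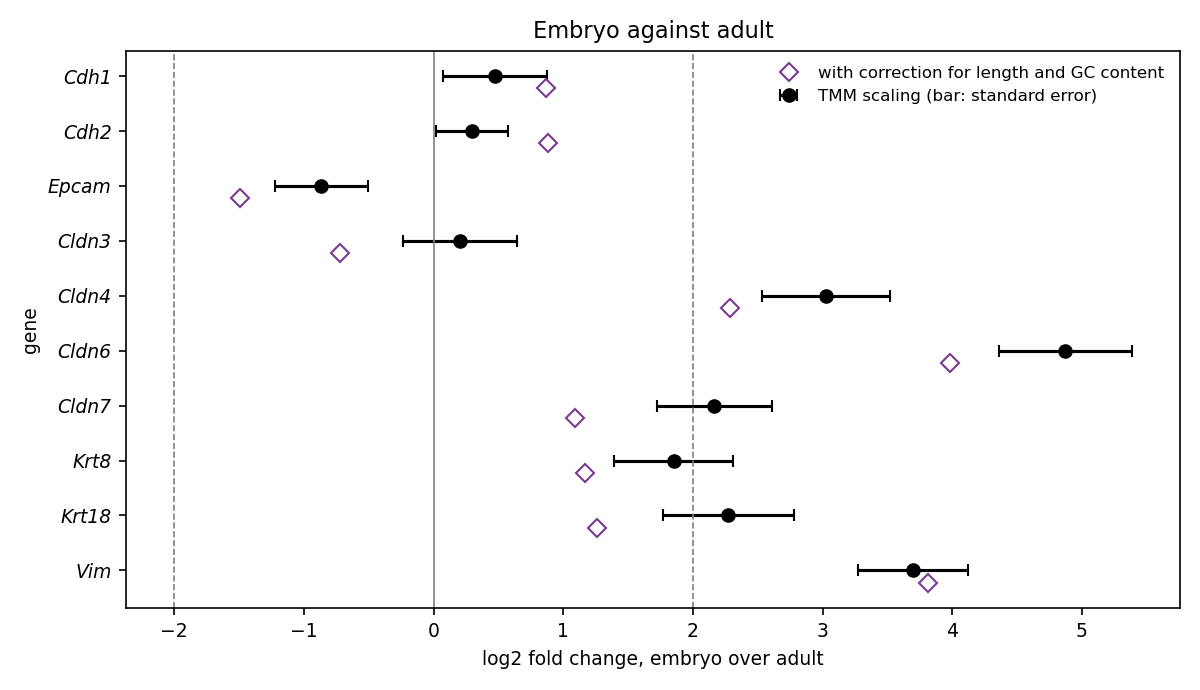
Log2 fold change of each gene, embryo over adult, from the TMM-scaled fit (black, bars show the standard error) and after correction for transcript length and GC content (open diamonds). Dashed lines mark a 4-fold difference, and Cldn4, Cldn6 and Vim lie beyond it on both scales.

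*Cdh1* encodes E-cadherin, the calcium-dependent adhesion protein of epithelial adherens junctions (ENSMUSG00000000303.12, chr8:106603351-106670246 in GRCm38). It ranged from 12.8 to 51.1 CPM in the embryos, with a median of 35.7 CPM, and had 25.2 and 21.3 CPM in the adults. Embryo 2 was lowest and embryo 5 highest, and the adults fell among the embryos. The stage difference on the log2 scale, 0.47 with a standard error of 0.40 (adjusted p = 0.336), was within the spread between embryos. Embryos 2, 1 and 4 were the lowest embryos for *Cdh1*, so leaving them out, a choice made after seeing the data, raises the difference by construction, to 0.84. Its adjusted p of 0.0270 in the edgeR test depends on that choice. *Cdh2* (ENSMUSG00000024304.14, chromosome 18) encodes N-cadherin, found in neural tissue and also in pituitary endocrine cells. It ranged from 78.9 to 156 CPM in the embryos (median 97.9 CPM) and had 95.8 and 79.9 CPM in the adults. Embryo 7 was highest, and both adults lay within the embryo range. Embryo over adult, the log2 difference was 0.30, close to its standard error of 0.28 (adjusted p = 0.392).

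Counts of *Cdh1* were divided by those of *Cdh2* within each library, a ratio that does not depend on scaling between libraries. The ratio was 0.135 to 0.493 in the embryos, with a median of 0.277, and 0.263 and 0.266 in the adults. *Cdh1* was thus below *Cdh2* in every library at both stages. The stages differed by 0.10 on the log2 scale (exact permutation test over 36 splits, two-sided, p = 0.806), which was smaller than the embryo SD of 0.63. A different balance of the cadherins was not detectable with these libraries. Per length, *Cdh2* was also above *Cdh1*, with mean levels of 38.0 and 12.4 TPM in the embryo and 40.6 and 11.7 TPM in the adult.

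Of the 23 annotated genes named Cdh with a number, 22 were tested, 3 were called higher in the embryo and 4 in the adult. Over all tested genes 11.3% and 14.6% were called in these directions. The median log2 fold change of the family was 0.38. P-cadherin, *Cdh3*, had 8.50 to 25.2 CPM in the embryos and 0.824 and 0.506 CPM in the adults, which is 4.69 on the log2 scale with a standard error of 0.59 (adjusted p = 2.5e-05). *Cdh11*, a cadherin of mesenchyme, was also higher in the embryo (2.26), as was *Cdh17* (3.38), for which the stages overlapped. *Cdh7* (−4.59), *Cdh26* (−4.09), *Cdh18* (−4.07) and *Cdh8* (−2.62) were called higher in the adult. After the length and GC correction *Cdh8* was no longer called (−1.66) and *Cdh6* (3.25) and *Cdh9* (2.30) were called higher in the embryo. That made 5 calls in the embryo and 3 in the adult, against 8.58% and 12.2% of all tested genes, with a family median of 0.89.

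*Epcam* encodes a surface glycoprotein that mediates contact between epithelial cells and binds claudins (ENSMUSG00000045394.9, chr17:87635979-87651129 in GRCm38). It ranged from 96.3 to 298 CPM in the embryos, with a median of 276 CPM, and had 417 and 416 CPM in the adults. Embryos 2 and 1 were lowest, and every embryo lay below both adults, which were nearly equal. On the log2 scale the embryos were at −0.87 relative to the adults, with a standard error of 0.36, and the test did not pass (adjusted p = 0.0554). Embryos 2, 1 and 4 were the lowest embryos here too, and leaving them out, a choice made after seeing the data, shrinks the difference by construction, to −0.52. *Epcam* passed on p, but not on fold, in some other settings. These included the DESeq2 Wald test (adjusted p = 0.0459), library size alone as the scale (adjusted p = 0.0386), no low-count filter (adjusted p = 0.0366) and the fit without embryo 7 (adjusted p = 0.0490). The length and GC correction, at −1.49 (adjusted p = 0.0036), was also among them.

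The ratio of *Epcam* to *Cdh1* counts separated the stages more widely. It was 5.40 to 8.45 in the embryos (median 7.66) and 16.6 and 19.6 in the adults. Every embryo was below both adults, by 2.53-fold between the stage means (exact permutation test, two-sided, p = 0.0278, the smallest that 36 splits allow). Adjusted over the 4 ratios compared, p was 0.0556. With the length and GC correction the log2 difference was −2.37 in place of −1.34, at the same unadjusted exact p.

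The 250 bases before the annotated start were read from RefSeq (GRCm38.p6) for 8 of the 10 genes. Zinc finger repressors of the Snai and Zeb families bind CACCTG, so these letters were searched on both strands, with CAGGTG as the reverse complement. Of 32851 promoter windows 17.2% hold them. The 8 genes have 9 windows, as *Cldn7* has a pair, and 6 of the 9 held them, which describes letters and not binding. Grainyhead factors bind AACCGGTT, which 0.116% of all windows and none of the 8 genes held. Besides *Epcam*, CACCTG or its complement was in the windows of *Krt8*, *Krt18*, *Cldn4* and *Cldn6* and in a window of *Cldn7*, all higher in the embryo. A link of these letters to the direction of change was not tested. The *Epcam* window is shown because its expression went the other way from the other separated genes. It is chr17:87635729-87635978 on the plus strand, and the capitals mark CACCTG or its complement, which begin 187 and 19 bases before the start.

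Epcam: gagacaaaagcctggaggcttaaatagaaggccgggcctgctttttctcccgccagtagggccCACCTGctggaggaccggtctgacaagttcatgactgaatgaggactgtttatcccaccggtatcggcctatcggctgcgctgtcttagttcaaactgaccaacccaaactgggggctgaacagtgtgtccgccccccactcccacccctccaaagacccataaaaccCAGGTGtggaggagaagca

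*Cldn6* encodes an embryonic claudin of epithelial cells (ENSMUSG00000023906.3, chr17:23679249-23682446). It had 172 to 607 CPM in the embryos, with a median of 360.0 CPM, and 12.4 and 12.6 CPM in the adults. Even embryo 2, the lowest, was far above both adults. Its log2 difference of 4.87, with a standard error of 0.51 (adjusted p = 6.3e-06 in the edgeR test), was the largest of the 10 on this scale. *Cldn4*, a claudin that restricts sodium passage (ENSMUSG00000047501.3, chr5:134945119-134946934), had 25.6 to 105 CPM in the embryos (median 78.4 CPM) and 10.9 and 6.13 CPM in the adults. This is 3.03 on the log2 scale, with a standard error of 0.50 (adjusted p = 2.3e-04). The stages did not overlap, and embryo 2 was again the lowest embryo.

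*Cldn7* is a claudin of the basolateral membrane as well as of tight junctions and a partner of EpCAM (ENSMUSG00000018569.12, chr11:69964779-69967885). It had 44.4 to 134 CPM in the embryos (median 79.9 CPM) and 21.6 and 16.8 CPM in the adults. Embryo 7 was lowest and the stages did not overlap. Embryo over adult it was 2.17 on the log2 scale with a standard error of 0.44 (adjusted p = 0.0011). It was 1.98, just under 4-fold, without adult 2, and did not pass when tested against 4-fold itself (adjusted p = 0.595).

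*Cldn3* (ENSMUSG00000070473.4, chr5:134986214-134987472), a sealing claudin, had 19.5 to 89.3 CPM in the embryos (median 53.1 CPM) and 50.4 and 41.4 CPM in the adults. The adults lay inside the embryo range, between embryos 5 and 7. A log2 difference of 0.20 with a standard error of 0.44 (adjusted p = 0.716) was within the spread, and it changed sign in 4 of the alternative settings, among them with library size alone as the scale, with the length and GC correction and without embryos 1 and 4. *Cldn3* and *Cldn4* are neighbours on chromosome 5, 39279 bases apart on opposite strands with no protein-coding gene between them. *Cldn4* was called and *Cldn3* was not, and the difference between them was not tested.

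The windows before *Cldn3* (chr5:134985964-134986213, plus strand), *Cldn4* (chr5:134946935-134947184, minus strand) and *Cldn7* (chr11:69964529-69964778, plus strand) are shown to set the neighbours and the third claudin side by side. Capitals mark CACCTG or its complement, which was found in the *Cldn4* window alone of these, 14 bases before the start. *Cldn7* has a further RefSeq start with a window that held it at 97 and 57 bases before that start.

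Cldn3: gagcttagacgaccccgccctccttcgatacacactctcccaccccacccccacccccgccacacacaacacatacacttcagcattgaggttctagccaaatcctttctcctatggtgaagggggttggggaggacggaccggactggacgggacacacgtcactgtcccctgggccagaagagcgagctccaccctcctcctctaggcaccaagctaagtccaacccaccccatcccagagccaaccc

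Cldn4: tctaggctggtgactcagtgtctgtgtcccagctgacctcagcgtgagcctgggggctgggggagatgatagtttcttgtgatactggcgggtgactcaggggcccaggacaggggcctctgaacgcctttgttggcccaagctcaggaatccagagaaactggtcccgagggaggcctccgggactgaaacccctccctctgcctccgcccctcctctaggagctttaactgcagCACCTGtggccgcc

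Cldn7: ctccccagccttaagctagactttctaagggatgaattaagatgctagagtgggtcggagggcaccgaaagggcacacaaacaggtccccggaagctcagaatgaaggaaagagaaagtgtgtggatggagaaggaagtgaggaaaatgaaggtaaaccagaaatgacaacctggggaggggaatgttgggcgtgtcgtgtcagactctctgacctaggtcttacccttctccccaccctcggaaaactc

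Of 35 annotated claudin genes 16 were tested. Of these, 6 were called higher in the embryo, namely *Cldn4*, *Cldn6*, *Cldn7*, *Cldn5*, *Cldn11* and *Cldn13*, and *Cldn2* and *Cldn14* were called higher in the adult. *Cldn13* was at 4.61 and 6.98 CPM in embryos 1 and 4, at most 1.79 CPM in the other embryos, and in embryo 2 level with adult 2 at 0.169 CPM, and it was not called after the length and GC correction (3.35, adjusted p above 0.05). The median log2 fold change of the family was 0.52. With the length and GC correction 4 were called higher in the embryo and 3 in the adult, with a median of 0.37. *Cldn7* (1.09) and *Cldn11* (1.59) were also no longer called there, while *Cldn34c1* (2.17) was called higher in the embryo and *Cldn23* (−2.34) in the adult. The shares of all tested genes were 11.3% and 14.6%, and 8.58% and 12.2% after the correction. Without embryos 1 and 4, where *Cldn15* (−0.59) also passed the filter and made 17 tested, the median was −0.057, the value of *Cldn3*. *Cldn5*, the claudin of endothelium, had 38.4 to 149 CPM in the embryos and 5.02 and 3.06 CPM in the adults (log2 fold change 4.25, adjusted p = 1.4e-04). *Cldn2*, a pore-forming claudin, had 0.440 to 1.80 CPM in the embryos and 9.02 and 12.2 CPM in the adults (log2 fold change −3.56, adjusted p = 4.2e-05).

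Levels per transcript length gave the make-up of the family at each stage. *Cldn6* accounted for 26.0% to 46.3% of the summed claudin TPM in the embryos and for at most 4.76% in the adults. *Cldn9* was the leading claudin in both adults, with 30.9% and 33.8%, and held 12.9% to 20.2% in the embryos. *Cldn3* came next in the adults, at 20.2% or more, against 3.82% to 9.50% in the embryos. All claudins together reached 697 to 1399 TPM in the embryos and 424 and 369 TPM in the adults. TPM was not scaled by TMM, and embryos 1 and 4, with the high erythroid sums, had the lowest claudin TPM of the embryos. In TMM-scaled CPM the claudin sums were 659 to 1286 in the embryos, lowest in embryo 2, and 341 and 294 in the adults. The claudin sum was thus lower in both adults than in any embryo and of a different make-up, led by *Cldn9* and *Cldn3* where *Cldn6* led in the pouch. For *Cldn9* itself the log2 fold change was 0.84 (adjusted p = 0.0381) and turned to −0.15 after the length and GC correction.

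**Figure D3:**
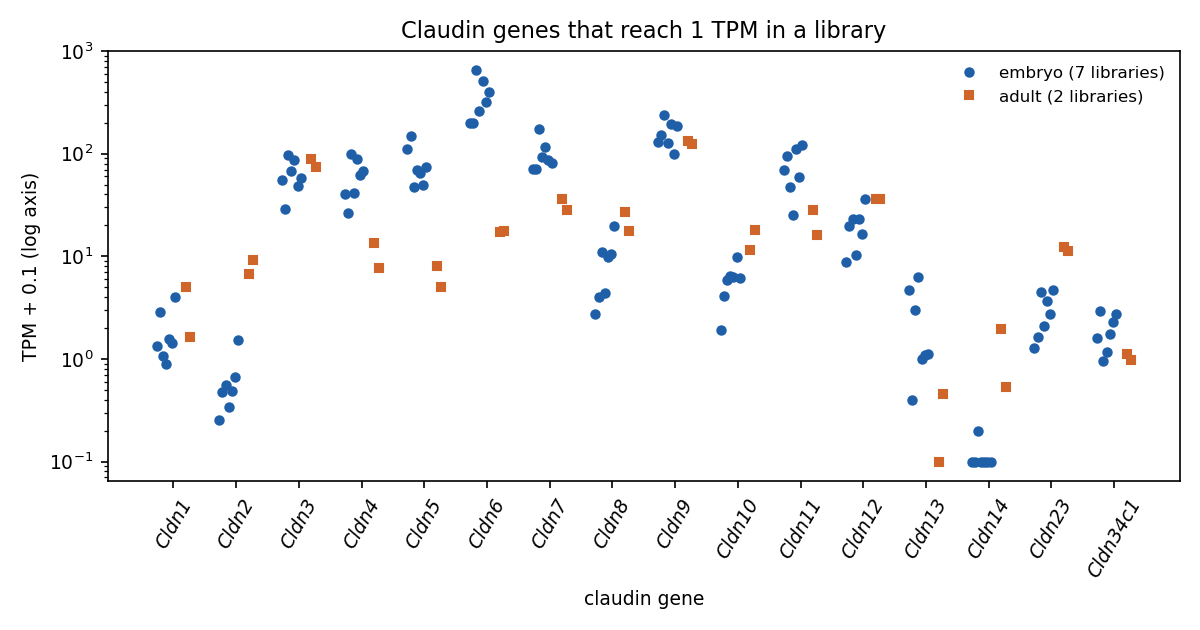
TPM + 0.1 (log axis) of each claudin gene that reached 1 TPM in a library, for 7 embryo (blue) and 2 adult (orange) libraries. Cldn6 is the most abundant claudin in every embryo, at 197 TPM or more, and Cldn9 in both adults, at 131 and 125 TPM.

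*Krt8*, the type II keratin of simple epithelia (ENSMUSG00000049382.10, chr15:101996698-102004482), had 127 to 502 CPM in the embryos, with a median of 272 CPM, and 88.5 and 74.8 CPM in the adults. Its type I partner *Krt18* (ENSMUSG00000023043.7, chr15:102028180-102032027) had 166 to 617 CPM (median 321 CPM) and 74.8 and 73.1 CPM. Embryo 2 was lowest for both, embryos 3 and 4 were the highest, and no embryo reached down to the adults. *Krt8* was 3.61-fold higher in the embryo, under the threshold (1.85 on the log2 scale with a standard error of 0.46, adjusted p = 0.0041). *Krt18* was 4.84-fold higher, above it (2.27 with a standard error of 0.51, adjusted p = 0.0020). When the fold change itself was tested against 4, *Krt18* did not pass (adjusted p = 0.493). The partners thus fell on either side of a threshold with fold changes that lay within a standard error of each other.

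The 2 genes lie 23697 bases apart on chromosome 15, on opposite strands, with no protein-coding gene between them. The ratio of *Krt8* to *Krt18* counts was 0.697 to 0.979 in the embryos (median 0.850) and 1.18 and 1.02 in the adults. All embryos were below both adults, with a log2 difference of −0.39 (exact permutation test, two-sided, p = 0.0278, adjusted over the 4 ratios 0.0556). After the length and GC correction the difference was −0.088 (exact p = 0.444) and the stages overlapped. A processed pseudogene, *Krt8-ps*, shares 941 bases with *Krt8* at 98.6% identity, and read pairs that fit both places are not counted. It had at most 0.528 CPM in any library. The long non-coding gene *Gm36026* overlaps *Krt8* on the other strand, and the unstranded count of *Krt8* was 89.4% of the strand-specific count.

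Of 55 annotated genes named Krt with a number 19 were tested, with 5 called higher in the embryo, 3 in the adult and a median log2 fold change of 0.58. Over all tested genes 11.3% and 14.6% were called. After the length and GC correction 4 were called each way, without *Krt18* and with *Krt17* (−2.13) among those higher in the adult, and the median was 0.14, while 8.58% and 12.2% of all tested genes were called. *Krt19*, another type I keratin of simple epithelia, had 4.87 to 23.8 CPM in the embryos and 1.92 and 0.787 CPM in the adults (log2 fold change 3.29, adjusted p = 0.0010). *Krt7* did not differ beyond its spread, with 10.9 to 26.3 CPM in the embryos and 25.3 and 15.4 CPM in the adults. *Krt18* and *Krt8* made up 54.2% to 62.4% and 31.9% to 39.0% of the summed keratin TPM in the embryos. In the adults they made up 43.6% and 47.6%, and 37.8% and 35.7%. The basal keratins *Krt5* and *Krt15* were called higher in the embryo but stayed at or below 3.10 CPM in every library, and *Krt222*, *Krt80* and *Krt86* were called higher in the adult at no more than 6.97 CPM. The keratin RNA of both stages was therefore mostly that of the simple epithelial pair.

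*Vim*, the intermediate filament of mesenchymal, endothelial and progenitor cells (ENSMUSG00000026728.9, chr2:13573927-13582826), had 380.2 to 934 CPM in the embryos, with a median of 494 CPM, and 43.9 and 41.8 CPM in the adults. The stages were far apart, and embryo 2 was the highest embryo where it was the lowest for most of the epithelial genes. The difference was 3.70 on the log2 scale with a standard error of 0.43 (adjusted p = 1.3e-05). Leaving out embryo 2 gave 3.53.

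The ratio of *Vim* to *Krt8* counts was 0.885 to 7.33 in the embryos (median 1.75) and 0.496 and 0.559 in the adults. The stages did not overlap, and the means differed by 3.75-fold. The exact permutation test gave p = 0.0556 (two-sided, adjusted over the 4 ratios 0.0741), and embryo 2 stood far above the rest. Without embryo 2 the log2 difference was 1.59 in place of 1.91, with an exact p of 0.0357, the smallest that 28 splits allow. The length and GC correction gave 2.71 (exact p = 0.0278).

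**Figure D4:**
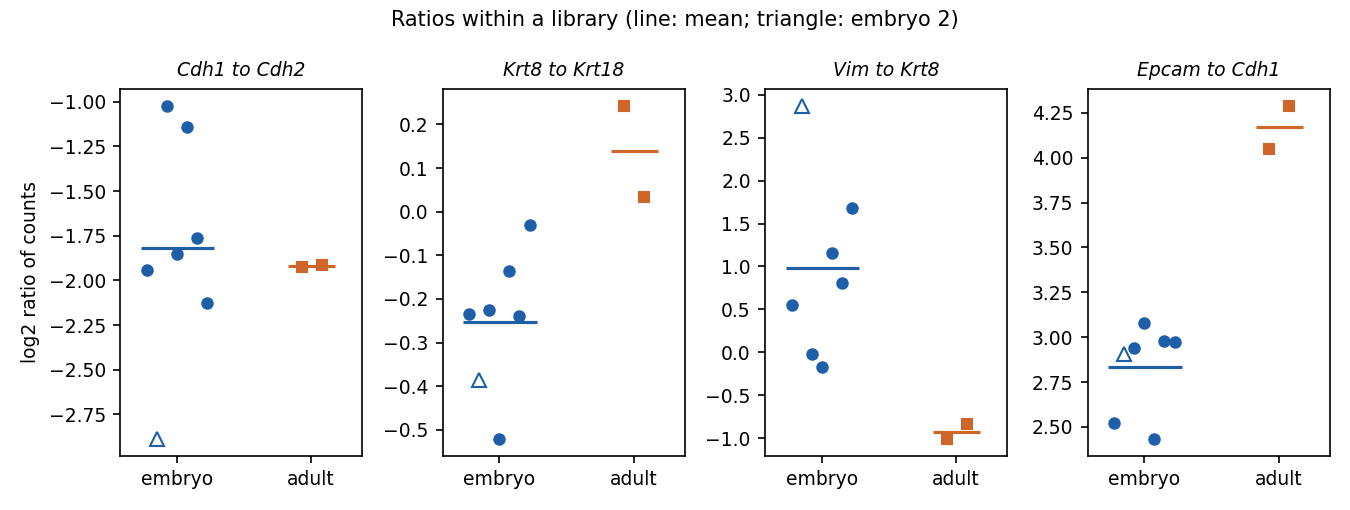
Log2 ratio of counts within each library for 4 pairs of genes, with embryos in blue, embryo 2 as an open triangle, adults in orange and lines at the means. The stages overlap for Cdh1 to Cdh2 and are separate for the other pairs.

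Ranked by mean TPM, *Krt18* (377 ± 164, SD, n = 7), *Cldn6* (362 ± 169) and *Vim* (331 ± 181) led the 10 genes in the embryo and lay within their spread. *Krt8* (234 ± 106) and *Epcam* (190 ± 103) followed, within a SD of each other and of *Vim*. The order varied between libraries, with *Krt8* above *Vim* in embryos 1, 3 and 4 and below it in the remaining embryos. *Cldn7* (98.7 ± 36.7), *Cldn3* (63.1 ± 23.1), *Cldn4* (61.0 ± 26.9) and *Cdh2* (38.0 ± 20.3) came next, and *Cdh1* was last (12.4 ± 7.31). In the adult the order was headed by *Epcam* (458 ± 4.09 TPM, SD, n = 2), well above *Krt18* (115 ± 0.552) and *Krt8* (93.4 ± 10.0). *Cldn3* (81.7 ± 10.3) was the fourth, *Cdh2* (40.6 ± 4.71) the fifth, and *Vim* (32.8 ± 0.767) and *Cldn7* (32.2 ± 5.43) could not be told apart. *Cldn6* (17.3 ± 0.427), *Cdh1* (11.7 ± 1.27) and *Cldn4* (13.4 and 7.63 TPM) were at the end, the last pair not apart beyond their spread. *Cldn6* moved from near the top of the order in the pouch to the eighth place in the adult.

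The lists of other junction genes are given as counts, to be read against the 11.3% and 14.6% of all tested genes called higher in the embryo and in the adult. Of 12 adherens junction genes none was called higher in the embryo and *Ctnna2* was called higher in the adult, with a median log2 fold change of −0.040 (0.78 after the length and GC correction). By an adjusted p below 0.05 alone, 3 were higher in the embryo and 3 in the adult, against 24.0% and 27.4% of all tested genes. Among the former was β-catenin, *Ctnnb1*, at 575 to 1370 CPM in the embryos and 564 and 566 CPM in the adults. Of 12 tight junction genes other than claudins only *Jam2* was called, higher in the adult (−3.38), and the median was −0.093. Occludin, *Ocln*, had 14.8 to 41.0 CPM in the embryos and 29.5 and 28.2 CPM in the adults, and the scaffold *Tjp1* had 18.7 to 35.0 CPM and 80.1 and 75.7 CPM. Of 14 genes of apicobasal polarity only *Crb1* was called, higher in the adult (−2.12), with a median of −0.10. Neither *Ctnna2* nor *Crb1* was called after the length and GC correction or without embryos 1 and 4, but *Mpp5*, of the polarity list, was called higher in the adult without these embryos (−2.51) and with library size alone (−2.29). The tight junction and polarity medians were 0.054 and 0.13 after the correction.

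Desmosomes anchor keratin filaments at cell contacts. Of 12 desmosome genes listed, 9 were tested, *Dsp* (−2.80), *Dsg2* (−2.14) and *Perp* (−2.10) were called higher in the adult and *Pkp1* (4.01) in the embryo, although the stages overlapped for *Pkp1* at 3.32 CPM or less, and the median log2 fold change was −1.57. *Dsg2* was not called without embryo 2 (−1.99) or after the length and GC correction (−1.13). *Perp* was not called without embryos 1 and 4 (−1.84). *Dsp*, desmoplakin, which links keratins to the membrane, had 2.78 to 11.6 CPM in the embryos and 47.2 and 36.6 CPM in the adults, in the opposite direction to *Krt8* and *Krt18*. After the length and GC correction it was at −1.42 (adjusted p = 0.0194), and the list had a median of −0.54. The list then had 1 gene called each way, against 8.58% of all tested genes in the embryo and 12.2% in the adult. Of 12 hemidesmosome and basement membrane genes, *Dst* (−4.08) and *Lama3* (−3.98) were called higher in the adult, none was called higher in the embryo, and the median was −1.26. With the correction *Dst* was at −1.79 and not called, and the median was −0.72. *Plec* (−2.04) was called higher in the adult with library size alone.

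Among 13 regulators of epithelial identity, *Esrp2* and *Ovol1* were called higher in the embryo and none in the adult, with a median log2 fold change of 0.70 (0.053 after the length and GC correction). *Grhl3* (2.10) was called higher in the embryo as well without embryos 1 and 4. *Esrp2*, a splicing factor of epithelia, had 8.11 to 38.6 CPM in the embryos and at most 3.44 CPM in the adults (2.84, adjusted p = 5.4e-04). Its paralogue *Esrp1* had 32.0 to 85.2 CPM and 80.4 and 72.2 CPM and was not called. Over all tested genes 11.3% were called higher in the embryo and 14.6% in the adult, or 8.58% and 12.2% after the correction. Of 10 regulators of the mesenchymal state, *Twist1* (4.26), *Foxc2* (3.51), *Twist2* (3.13) and *Snai1* (2.47) were called higher in the embryo and *Prrx1* (−2.82) in the adult, with a median of 1.40. *Snai1* (1.65) and *Prrx1* (−1.36) were not called after the correction. *Zeb1* had 12.2 to 39.4 CPM in the embryos and 31.2 and 30.9 CPM in the adults, and the stages overlapped. Of 12 other intermediate filament genes none was called higher in the embryo by edgeR, and *Gfap*, *Synm*, *Nefh* and *Ina* were called higher in the adult, with a median of 0.25. *Nes* was called higher in the embryo after the correction (2.05), *Prph* by DESeq2 (adjusted p = 0.00975) and without embryos 1 and 4 (2.89), and *Lmnb1* without embryos 1 and 4 (2.23) or embryo 2 (2.02). Of 10 further epithelial surface genes only *Cdh3* was called, and the median was 0.67, while *Prom1* (2.36) was called as well after the correction.

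Several of the 10 genes were high or low in the same embryos. Embryo 2 was the lowest embryo for 7 of the 8 genes other than *Vim* and *Cdh2*, the exception being *Cldn7*, where embryo 7 was lowest. Relative to the embryo median it was at −1.61 on the log2 scale for *Cldn4*, −1.52 for *Epcam* and −1.47 for *Cdh1*, and at 0.92 for *Vim*. Embryo 3 was the highest embryo for *Epcam*, *Krt8*, *Cldn4*, *Cldn6* and *Cldn7*. The 5 genes called higher in the embryo were called without embryo 2, without embryos 1 and 4, and without all of these.

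Marker lists of other cell types also differed between embryos, though not all in the same embryos. Their calls are to be read against the 11.3% of all tested genes called higher in the embryo and the 14.6% in the adult. The 8 endothelial markers, led by *Cldn5* and *Emcn* in the embryos and by *Kdr* in the adults, summed to 398, 704.5, 208, 304, 377, 341 and 379 CPM in embryos 1 to 7 and to 148 and 91.8 CPM in the adults. Of them 2 were called higher in the embryo, 4 without embryos 1 and 4 and 3 after the length and GC correction, and none was at 0 throughout a stage. Over all genes, 2249 of 19508 were called higher in the embryo without embryos 1 and 4, and 8.58% after the correction. The list shares *Cldn5* and *Cdh5* with the claudin and cadherin families. The 10 mesenchymal markers, led by *Col3a1* in the embryos and *Col1a2* in the adults, summed to 1990.0, 2245, 733, 1137, 1802, 1736 and 2519 CPM in embryos 1 to 7 and to 791 and 531 CPM in the adults. Of them 6 were called higher in the embryo and 1 in the adult, and *Twist1* and *Prrx1* are also in the list of mesenchymal regulators. Embryo 2 thus had the highest endothelial sum and embryo 3 the lowest sum of both. The 10 pituitary markers, led by *Pitx1* in the embryos and *Six6* in the adults, were lowest in embryo 2 (806 CPM) and highest in embryo 3 (1890 CPM), with 883 and 761 CPM in the adults, and 3 were called higher in the embryo and 1 in the adult. The part of these cells in the levels of *Vim* and of the epithelial genes was not tested.

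**Figure D5:**
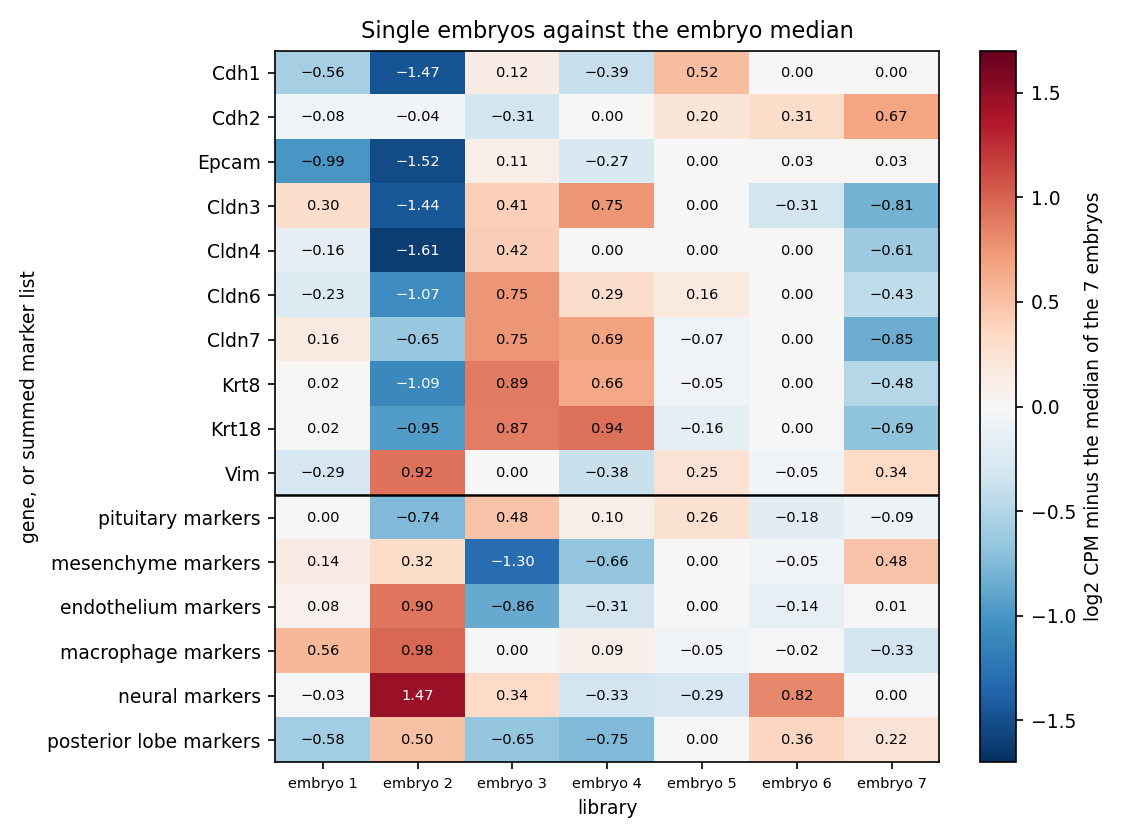
Log2 CPM of each gene, and of the summed CPM of marker lists, in each embryo minus the median of the 7 embryos. In embryo 2 the claudins, keratins, Cdh1 and Epcam are below the median while Vim and the endothelial, macrophage and neural sums are above it.

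The same shares, 11.3% and 14.6% of all tested genes, apply to the calls in the lists that follow. They were 8.58% and 12.2% after the length and GC correction. Without embryos 1 and 4, of 19508 tested genes 2249 were called higher in the embryo and 3152 in the adult. Macrophage markers (7, led by *C1qb* in the embryos and *Csf1r* in the adults) summed to 115 to 285 CPM in the embryos, highest in embryo 2, and to 81.3 and 126 CPM in the adults, with none called in the embryo and 1 in the adult. Neural markers (8, led by *Tubb3* in the embryos and *Map2* in the adults) summed to 153 to 531 CPM, highest in embryo 2, and to 399 and 402 CPM, with 3 called higher in the embryo and 1 in the adult. Posterior lobe markers (6, led by *Gja1* in the embryos and *Slc1a3* in the adults, and sharing *Rax* and *Nkx2-1* with the neural list) summed to 191 to 456 CPM, highest in embryo 2, and to 122 and 161 CPM, with 3 and 1 called. Cartilage and muscle markers (7 of 8 tested, led by *Col2a1* in the embryos and *Ttn* in the adults) summed to 158 to 374 CPM and to 26.9 and 62.2 CPM, with 5 and 1 called and *Matn1* and *Myod1* at 0 in both adults. The 8 erythroid markers had 7 called higher in the embryo, 5 without embryos 1 and 4 and 3 after the length and GC correction, and *Hbb-bh1* was at 0 in both adults. The part of these cell types in the 10 genes was not tested.

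Markers of stratified epithelium share 6 keratins with the keratin family, and *Trp63* and *Col17a1* with other lists. Of the 10 markers 7 were tested and 3 (*Krt5*, *Krt15* and *Sfn*, the most abundant in the embryos, where *Col17a1* was in the adults) were called higher in the embryo. They summed to only 6.71 to 15.7 CPM in the embryos and to 5.72 and 8.69 CPM in the adults. *Krt13* was at 0 in every embryo, *Krt6a* was at 0 in both adults, and *Trp63* was at most 0.891 CPM in an embryo. These sums compare with 294 to 1090 CPM for *Krt8* and *Krt18* together in the embryos.

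Genes with the pattern most like 3 of the 10 were sought over the 7 embryos among 12739 genes whose counts averaged 100 or more, by Pearson correlation of log2 CPM, as a description. For *Epcam* they were *Nefl* (r = 0.990), *P2rx2* (0.978), *Tes* (0.972), *Pkp2* (0.967) and *Ptger2* (0.953). *Pkp2* is a desmosome protein. For *Cdh1* they were *Shb* (0.963), *Taf5* (0.955), *Chrnb1* (0.953), *Prickle1* (0.952) and *Ripk4* (0.942). For *Vim* they were *Ehd4* (0.991), *Tgfb3* (0.983), *Ntn1* (0.982), *Insyn1* (0.982) and *Rgl1* (0.979). Depth and marker sums differed between these embryos, and their part in these correlations was not tested. Embryo 2 is the lowest embryo for *Epcam* and *Cdh1* and the highest for *Vim*. The likeness over embryos often did not extend to the stages. *P2rx2*, *Tes* and *Ptger2* were higher in every embryo than in both adults, the opposite of *Epcam*. *Nefl*, with 63.9 and 42.8 CPM in the adults and a median of 172 CPM in the embryos, overlapped between stages, as did *Pkp2*. Of the genes most like *Vim*, *Insyn1* was higher in both adults (24.6 and 36.5 CPM) than in any embryo, and the others overlapped. *Chrnb1* was higher in both adults than in any embryo, and the others most like *Cdh1* overlapped, as did *Cdh1* itself.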

How the data were processed

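RNA was measured in 9 libraries, grouped by stage as the sample labels give it. The authors prepared directional poly(A) libraries from 50 ng of RNA, read 75 bp pairs, trimmed them with Trimmomatic 0.39, aligned them to mm10 with STAR 2.7.5b and deposited raw counts per gene of Ensembl 96, without normalisation. The deposited counts are read pairs per gene, and the count on the sense strand was used. All 55450 identifiers were found in GENCODE M21, which gave symbols and transcript lengths. Read pairs that named no gene (16.0% to 40.3% per library) stayed out of library sizes and tests.

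Genes whose counts averaged 5 or more were scaled by TMM and fitted with the quasi-likelihood test of edgeR 4.0.16 in R 4.3.3, with stage as the only term, and the scripts were tested on simulated data. Adjusted p-values are from this test over all tested genes unless another is named. Standard errors are the log2 fold change divided by the root of F and are approximate. The p-values measure the spread between animals, and with 2 adults the adult spread rests on a single difference. TPM used the longest annotated transcript and has a fixed total per library without TMM scaling. The erythroid genes of embryos 1 and 4 take part of that total, and this enters the TPM levels and SDs of the embryos. Ratios were tested by exact permutation. Promoter windows were read from RefSeq and are shown where the RefSeq start is the GENCODE gene start. Sequence comparison used BLAST, tables and figures were made in Python 3.11.15, with pandas 2.3.3 and numpy 2.4.6 for tables, scipy 1.17.1 for statistics and matplotlib 3.10.9 for plots.

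The genes named are the 10 members, those of the gene lists, any Cldn, Krt or Cdh gene with a number, and the 5 genes most correlated with *Epcam*, *Cdh1* and *Vim*. Members and lists were chosen with earlier results of these data known. Any other gene was named after its values were seen. Alternatives were the DESeq2 1.42.0 Wald test, DESeq2 size factors or library size alone, 2 other low-count filters, the unstranded count, other fold thresholds, a replicate block, a length and GC correction (a spline of 4 degrees of freedom for each, fitted per library over genes whose counts averaged 50 or more), each library left out and embryos 1 and 4 left out. Leaving out embryos 1, 2 and 4, and the length and GC correction of ratios, were chosen after seeing the data.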

Additional observations from a re-analysis of the deposited data

Results flagged for a closer look

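The summed CPM of the 8 endothelial markers was 704.5 in embryo 2 and 398.1 in the next embryo, so this library lay far from the others, with a gap of 0.618 of the whole embryo range. It was 1 of 24 sets of 7 embryo values looked at (10 genes and 10 marker sums in CPM, and 4 ratios on the log2 scale), and chance alone picks about 1 in 20. Without the log scale, the ratio of *Vim* to *Krt8* in embryo 2 also lay far from the others, at 7.33 against 3.20 in the next embryo, a gap of 0.641 of the range.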

How the results depend on the processing

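Of 220 log2 fold changes of the 10 genes under 22 alternative settings, 204 kept their direction and their side of the call threshold, 9 were no longer called, 2 became called and 5 changed sign. Settings that changed only the fold threshold reuse the main fold changes, so no sign could change there. All settings draw on the same 9 libraries and are not independent of each other. The number of the 10 genes called higher in the embryo was 5, and it was 3 with library size alone as the scale, with the fold change tested against 4, with the replicate block and with the length and GC correction. It was 4 to 5 with each library left out (3683 to 5290 of all genes), and 6 at a fold change above 2 or without a fold threshold, and none was called higher in the adult in any setting. Over all genes 5001 were called, 8960 at a fold change above 2, 9948 without a fold threshold and 1744 with the fold change tested against 4, which follows from the thresholds. *Cldn3* was −0.72 with the length and GC correction, −0.081 with library size alone and −0.057 without embryos 1 and 4. The cause was not tested. With the replicate block *Cldn3* was −0.31, *Cdh1* −0.35 and *Epcam* −1.80 (edgeR adjusted p = 4.5e-04) against −0.87. This follows from the embryos it keeps, 1 and 2, which are the lowest for *Epcam* and *Cdh1*, and embryo 2 also for *Cldn3*. Library size alone shifted the median of all genes by −0.22 on the log2 scale, and the share of calls higher in the embryo was 34.8% there against 43.6%. Replicate numbers 1 and 2 occur at both stages but number different animals, and deviations of same-numbered libraries correlated at 0.08 and 0.02 across genes, so the block used 4 libraries that share only a number (4151 genes called). With each library left out, the log2 ratio of *Cdh1* to *Cdh2* differed between stages by −0.034 to 0.28, *Krt8* to *Krt18* by −0.50 to −0.29, *Vim* to *Krt8* by 1.59 to 2.10 and *Epcam* to *Cdh1* by −1.46 to −1.22. With an adult left out the smallest exact p is 0.125. With the length and GC correction these ratios differed by −0.089, −0.088, 2.71 and −2.37. A low count of 3 reads corresponds to at most 0.220 CPM in a library and covers counting error only. In the main fit, with 2 adults, the differences seen for *Cdh1*, *Cdh2* and *Cldn3* were not detected beyond the spread between embryos. *Cdh2* passed on p, but not on fold, after the length and GC correction (0.88, adjusted p = 0.0086).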
